A study of Mus musculus with 6 samples.

Results

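The canonical Notch receptors and ligands were followed in RNA-seq of sorted Sox9-GFP cells of the mouse embryonic liver. They are the receptor genes Notch1, Notch2, Notch3 and Notch4 and the ligand genes Jag1, Jag2, Dll1 and Dll4, taken from the deposited table by Ensembl identifier, 8 genes of the 52550 listed. Every one had reads in all 6 libraries and entered the test between stages. The cells came from CD-1 embryos of the Sox9-GFP genotype, at E16.5 in 3 libraries and at E18.5 in the 3 others (the sample labels say embryonic days 16 and 18). Livers were pooled within a stage, dissociated, depleted of haematopoietic cells with magnetic beads and sorted for green fluorescence, so the positive gate follows activity of the Sox9 reporter. Both stages carry the same reporter, and no comparison with altered Notch signalling or without the reporter was made here.

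Notch receptors are membrane proteins that are cut when a Jagged or Delta ligand on a neighbouring cell pulls on them. The freed intracellular part enters the nucleus, binds the DNA-binding protein RBPJ and switches on target genes such as those of the Hes and Hey families. In the developing liver the pathway is known for directing hepatoblasts around the portal vein toward the biliary fate, with Jag1 and Notch2 as the pair whose loss leaves too few bile ducts; in vessels, Dll4, Notch1 and Notch4 act in endothelium and Notch3 in mural cells.

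Levels are given in TPM, the transcript abundance that the authors computed from read counts, gene length and library total, and libraries are named by stage and letter. The reads recovered from these values numbered between 23193537 and 26206374 per library at E16.5 and between 13093937 and 22643868 at E18.5, so the later libraries were shallower. For the receptors and ligands this depth was ample: the fewest reads were 83, for Dll4 in E18.5 A, and the most 26044, for Notch2 in the same library. A count of 3 reads was worth between 0.0246 and 0.192 TPM, far under every value below; this limit covers counting error only. The stages were compared with limma on log2(TPM + 1), with Benjamini-Hochberg adjustment over 22452 genes, and a gene was called at an adjusted p under 0.05. On this scale the fold change of a low gene is understated. An exact two-sided permutation test of the TPM was added for each gene, whose smallest possible p with 3 libraries against 3 is 0.1. Nothing states that the pools within a stage were prepared independently, and the p-values measure the spread between these pools. With the TPM as deposited the median log2 fold change of all genes tested was 0.42 toward E18.5. After median-of-ratios scaling, which sets the typical gene of each library equal, it was 0.011. Each change of a receptor or ligand, and each list's calls, are therefore given on both scales, and single values of other genes are on the deposited scale unless stated.

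Of the 8 genes, Notch2, Jag1 and Dll1 were called higher at E18.5 with the TPM as deposited, and the other 5 did not pass the test. After median-of-ratios scaling only Notch2 of these 3 was still called, and without library E18.5 A none was. To show where these 3 genes begin, the bases before their RefSeq transcription starts are printed here from GRCm38.p6, 5′ to 3′ on the gene's own strand, ending before the first base of the GENCODE gene. Capitals mark matches to ACAATG, a core motif of SOX factors, or to CACNAG, the N-box bound by HES repressors, on either strand. Notch2 is shown at chr3:98013288-98013526 (forward strand), Jag1 at chr2:137116645-137116770 (reverse strand) and the upstream of the 2 Dll1 starts at chr17:15376933-15377182 (reverse strand).
Notch2: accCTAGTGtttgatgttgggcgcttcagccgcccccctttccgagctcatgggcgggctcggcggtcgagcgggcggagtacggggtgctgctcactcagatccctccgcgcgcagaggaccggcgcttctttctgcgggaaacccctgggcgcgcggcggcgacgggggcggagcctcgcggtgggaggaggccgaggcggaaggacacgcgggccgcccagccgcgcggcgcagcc
Jag1: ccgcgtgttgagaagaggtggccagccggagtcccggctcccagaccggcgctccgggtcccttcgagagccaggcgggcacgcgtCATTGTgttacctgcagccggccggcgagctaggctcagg
Dll1: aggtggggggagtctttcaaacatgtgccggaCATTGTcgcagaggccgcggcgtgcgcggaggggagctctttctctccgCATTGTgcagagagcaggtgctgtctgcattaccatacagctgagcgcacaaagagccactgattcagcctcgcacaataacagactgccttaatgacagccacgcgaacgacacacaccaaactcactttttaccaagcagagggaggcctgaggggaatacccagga
The windows of 250 bases before all RefSeq starts were searched on both strands, 9 of them for the 8 genes and 32851 for all genes. Unlike the printed stretches, these windows were not cut at the GENCODE gene. All 250 bases lay inside it for Notch1, Jag2 and the downstream Dll1 start. For Jag1 124 bases lay inside, for Notch2 11, and for Notch4 27, which hold its match given below. ACAATG was found in 3 of the 9 windows and in 10.7% of all windows. The Jag1 match began 164 bases before the start (-164), the upstream Dll1 window held matches at -218 and -169, and the Notch4 window held 1 at -11. CACNAG was found in 4 of the 9 windows and in 36.7% of all windows, at -247 for Notch2, -108 for Notch1, -75 for Dll4, and -204 and -159 for Notch3. The RBPJ core TGGGAA was in 0 of the 9 windows and in 21.6% of all, and its longer form GTGGGAA, which contains the core, in 0 of 9 and 5.42% of all. The HNF1 element GTTAAT was in 0 of 9 windows and in 6.43% of all. GC content was 72.0% in the Notch2 window, 57.2% in the Jag1 window and 56.0% in the upstream Dll1 window. The median over all windows was 52.4%, and the Jag2 window, inside the gene, reached 87.2%. These matches describe letters and were not tested as binding sites.

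Among the receptors, Notch2 was by far the most abundant. In libraries A, B and C in turn, the order kept below, Notch2 had 172, 188 and 125 TPM at E16.5 and 353, 379 and 285 TPM at E18.5. All E18.5 libraries lay above all E16.5 libraries, with B the highest and C the lowest at both stages. The mean went from 162 ± 32.8 TPM (SD, n = 3) to 339 ± 48.8 TPM, which placed Notch2 above 97.6% of the 21819 protein-coding genes listed at E16.5 and above 99.1% at E18.5. The log2 fold change was 1.07 (SE 0.19, 95% interval 0.63 to 1.52, limma adjusted p = 0.0128; exact permutation p = 0.1). After median-of-ratios scaling it was 0.61 and still passed the test (adjusted p = 0.0283). Without library E18.5 A the change of Notch2 was no longer called (adjusted p = 0.0511).

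The receptor Notch1, which acts in endothelium and many progenitor cells, had 17.7, 10.2 and 8.21 TPM at E16.5 and 11.9, 15.2 and 19.8 TPM at E18.5. The stages overlapped, since E16.5 A lay above E18.5 A and B. The log2 fold change was 0.39 (SE 0.30, 95% interval -0.32 to 1.11, adjusted p = 0.337), and -0.040 after median-of-ratios scaling. Notch3, the receptor of mural cells, had 12.0, 7.33 and 8.46 TPM at E16.5 and 8.49, 8.95 and 16.6 TPM at E18.5. Here E18.5 C stood alone above the other libraries of its stage, and E16.5 A was above E18.5 A and B. The log2 fold change of Notch3 was 0.23 (95% interval -0.47 to 0.93, adjusted p = 0.564) as deposited and -0.19 after median-of-ratios scaling, so it changed sign with the scaling, as that of Notch1 did. Notch4, a receptor largely restricted to endothelium, was the lowest of the 8 genes, with 2.84, 1.84 and 1.82 TPM at E16.5 and 2.27, 4.25 and 6.75 TPM at E18.5. Its E18.5 libraries spread 2.98-fold, and E18.5 A fell inside the range of E16.5. The log2 fold change was 0.70 (95% interval -0.14 to 1.55, adjusted p = 0.164), and 0.36 after median-of-ratios scaling.

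Jag1, the Jagged ligand presented to biliary precursors by the portal mesenchyme and also made by biliary cells, was the leading ligand. It had 72.7, 79.5 and 37.1 TPM at E16.5 and 139, 162 and 135 TPM at E18.5. The stages did not overlap, and within each stage B was highest and C lowest, as for Notch2. The mean went from 63.1 ± 22.8 TPM (SD, n = 3) to 145 ± 14.8 TPM, with a log2 fold change of 1.26 (SE 0.28, 95% interval 0.60 to 1.92, adjusted p = 0.0198). After median-of-ratios scaling the change of Jag1 was 0.80 and just missed the threshold (adjusted p = 0.0526). Dll1, a Delta ligand of many embryonic progenitors, had the largest log2 fold change of the 8 genes as deposited, though Jag1 exceeded it without E18.5 A (1.29 against 1.24) and both Jag1 (1.05) and Notch2 (0.99) exceeded it (0.97) after quantile normalization. It had 16.4, 19.9 and 8.91 TPM at E16.5 and 43.3, 40.9 and 30.5 TPM at E18.5. Again the stages did not overlap and C was lowest at both stages. The mean went from 15.1 ± 5.63 TPM (SD, n = 3) to 38.2 ± 6.82 TPM, with a log2 fold change of 1.34 (SE 0.29, 95% interval 0.65 to 2.03, adjusted p = 0.0191). Scaled by median of ratios, the change of Dll1 was 0.90 (adjusted p = 0.0519). Neither Jag1 nor Dll1 was called without library E18.5 A (adjusted p = 0.0612 and 0.0665) or without E18.5 B (0.0597 and 0.0582). A lincRNA gene on the opposite strand, A930024N18Rik, shares 20.55% of the Dll1 exon sequence; the library kit keeps strand, but whether the counting used strand is not given in the sources used here.

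Jag2, the second Jagged ligand, had 5.21, 4.42 and 5.72 TPM at E16.5 and 6.19, 10.1 and 7.92 TPM at E18.5. Its stages did not overlap, but by a gap smaller than the spread within E18.5, and the change did not pass the test (log2 fold change 0.55, 95% interval 0.018 to 1.08, adjusted p = 0.0987). After median-of-ratios scaling it was 0.14. Dll4, the Delta ligand of sprouting endothelium, had 7.11, 4.29 and 3.68 TPM at E16.5 and 3.15, 6.91 and 10.0 TPM at E18.5. Both the lowest and the highest of its values were from E18.5, a 3.19-fold spread within the stage. The log2 fold change was 0.28 (95% interval -0.66 to 1.23, adjusted p = 0.599), and -0.10 after median-of-ratios scaling. In the exact permutation test of the TPM, p was 0.1, its smallest value, for Notch2, Jag1, Jag2 and Dll1, and between 0.2 (Notch4) and 0.7 (Dll4) for the other 4 genes.

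**Figure D1:**
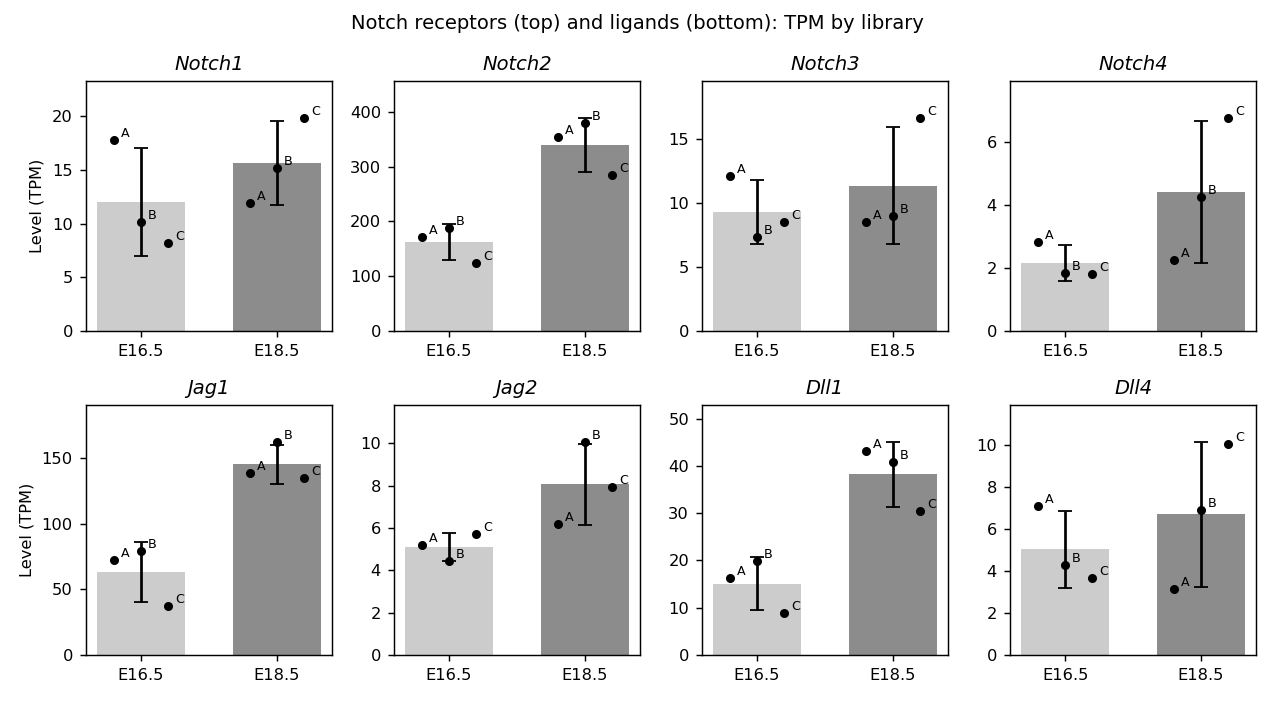
TPM of each receptor (top row) and ligand (bottom row) at E16.5 and E18.5; bars are means of 3 libraries, error bars are SD, and points are libraries A, B and C. For Notch2, Jag1, Jag2 and Dll1 the 3 points of E18.5 lie above the 3 of E16.5, whereas for Notch1, Notch3, Notch4 and Dll4 the stages overlap.

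In sum over the family, 3 of the 8 genes (37.5%) were called higher and 0 lower at E18.5. Of all genes tested, 31.2% were called in either direction and 26.0% were called higher, so the count stood little above the background. Library values of the stages were apart for 4 of the 8 genes (50.0%), beside 53.3% of all genes tested, so this share was no more than the background. The median log2 fold change was 0.63 for the 8 genes and 0.42 for all genes. With median-of-ratios scaling 1 of the 8 (12.5%), Notch2, was called higher, beside 6.44% of all genes, and the median was 0.25 for the 8 genes. Among all tested genes, the deposited-scale change of Notch2 lay above 88.5%, that of Jag1 above 92.7% and that of Dll1 above 94.1%.

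**Figure D2:**
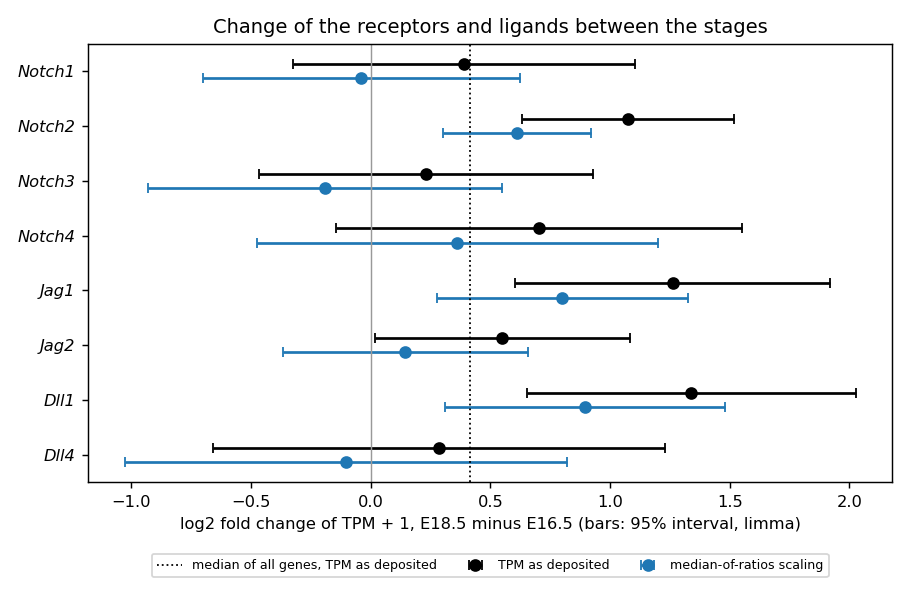
The log2 fold change of TPM + 1 (E18.5 minus E16.5) of each gene, with 95% intervals from limma, for the TPM as deposited (black) and after median-of-ratios scaling (blue); the dotted line is the median of all genes tested, 0.42. The intervals of Notch2, Jag1 and Dll1 stay above 0 on both scales, and the values of Notch1, Notch3 and Dll4 move from above to below 0.

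TPM is scaled by length, so the 8 genes can also be ordered by level. The order of the means was the same at both stages: Notch2, Jag1, Dll1, Notch1, Notch3, Jag2, Dll4 and Notch4. At E16.5 the TPM of Notch2 was 2.56 times that of Jag1, and Jag1 was 4.18 times Dll1, with no overlap of the library values. Dll1 and Notch1, Notch1 and Notch3, and Jag2 and Dll4 overlapped at E16.5 and could not be ordered beyond their spread. At E18.5 Notch2 was 2.33 times Jag1, Jag1 3.80 times Dll1, and Dll1, which had overlapped with Notch1 at E16.5, was 2.45 times Notch1 with no overlap. From Notch1 downward every neighbouring pair overlapped at E18.5.

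Shares within a family do not depend on the scaling between libraries. Notch2 held 84.1, 90.7 and 87.1% of the summed receptor TPM at E16.5 and 94.0, 93.0 and 86.9% at E18.5. These stages overlapped, because E18.5 C was as low as the E16.5 libraries (means 87.3 ± 3.31% and 91.3 ± 3.86%, SD, n = 3; exact permutation p = 0.3). Jag1 held 71.7, 73.5 and 66.9% of the summed ligand TPM at E16.5 and 72.5, 73.7 and 73.6% at E18.5 (exact permutation p = 0.2). Dll1 took a further 16.9 ± 1.33% at E16.5 and 19.3 ± 3.04% at E18.5 (SD, n = 3), and the stages overlapped. No share differed between the stages beyond the spread (exact permutation tests, adjusted p over the 8 genes 0.343 for all but Notch4, which had 0.9), and adjusted values under 0.05 were out of reach with 3 libraries a stage. Summed receptor TPM went from 185 ± 36.1 to 370 ± 40.2 and summed ligand TPM from 88.3 ± 28.7 to 198 ± 19.4 (SD, n = 3), each with stages apart. The ligand sum was 0.468 ± 0.0717 of the receptor sum at E16.5 and 0.537 ± 0.0250 at E18.5, and the stages overlapped (exact permutation p = 0.2).

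**Figure D3:**
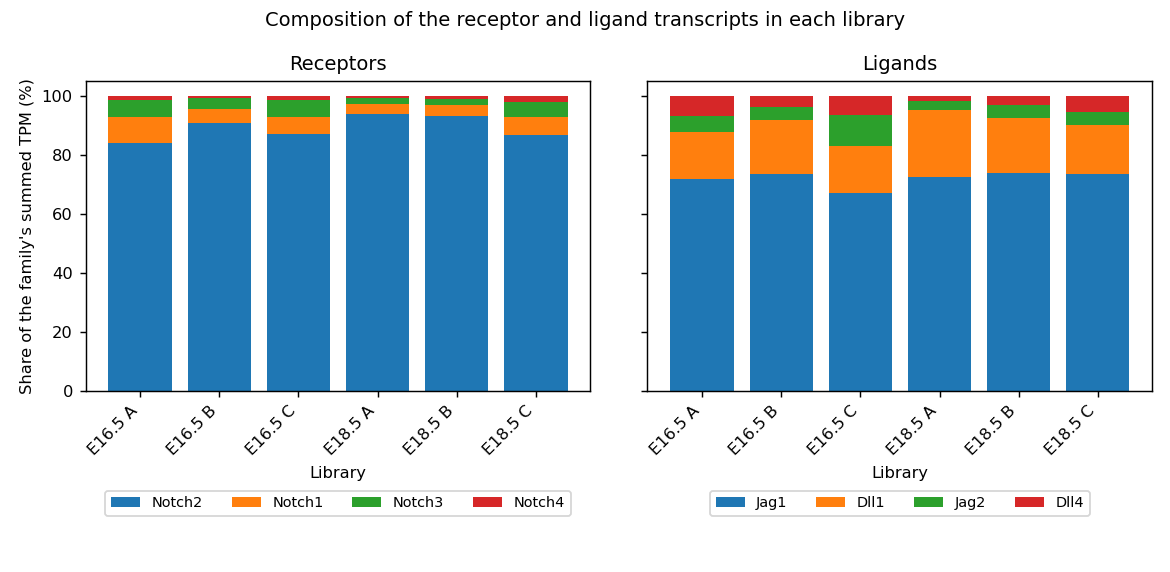
Share of each gene in the summed TPM of the 4 receptors (left) and of the 4 ligands (right), in percent, for the 6 libraries. Notch2 makes up 84.1 to 94.0% of receptor TPM and Jag1 66.9 to 73.7% of ligand TPM, with no consistent step between the stages.

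Across libraries the 8 genes fell into different profiles, which were compared by the root mean square difference of log2(TPM + 1), each gene centred on its own mean over 6 libraries. Jag1 and Dll1 differed by 0.15, Notch2 and Jag1 by 0.20, and Notch2 and Dll1 by 0.21. Notch1 differed from Notch3 by 0.23 and from Dll4 by 0.24, and Notch4 from Dll4 by 0.24. Dll1 and Dll4, both Delta ligands, differed by 0.82. Within both stages Notch1, Notch3, Notch4 and Dll4 were highest in E16.5 A and in E18.5 C and lowest, at E18.5, in E18.5 A, the library in which Dll1 was highest. These likenesses describe 6 libraries, in which stage and depth are shared by all genes, and have no test.

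**Figure D4:**
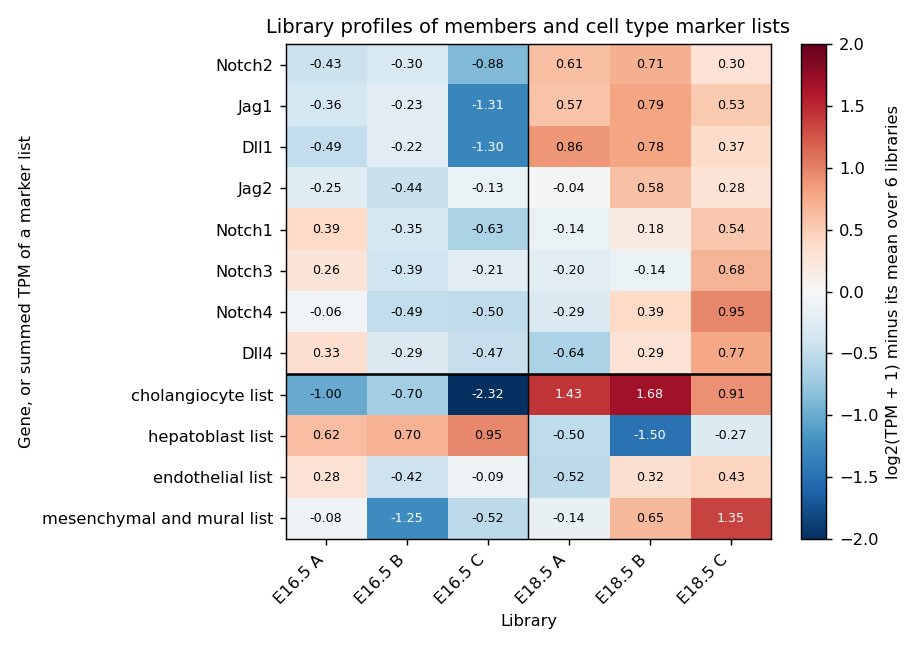
Log2(TPM + 1) of each gene, and of the summed TPM of 4 marker lists, minus its mean over the 6 libraries (color scale from -2 to 2). Notch2, Jag1 and Dll1 are below their mean in the 3 E16.5 libraries and above it at E18.5, as is the cholangiocyte list, while Notch1, Notch3, Notch4 and Dll4 peak in E18.5 C, as do the endothelial and the mesenchymal and mural lists.

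The labelled cell type was checked with marker lists, and the libraries held transcripts of several cell types. Of 10 cholangiocyte markers 8 rose as deposited and 5 after median-of-ratios scaling, beside the 26.0% and 6.44% of all genes that rose, with a median log2 fold change of 1.65 as deposited and 1.23 after scaling. Their summed TPM went from a range of 907 to 2797 at E16.5 to a range of 8543 to 14572 at E18.5. Of 8 hepatoblast markers 6 fell (5 after scaling), and their sum went from a range of 159902 to 200939 TPM to a range of 36713 to 85732 TPM. Notch2 and Jag1 had the same highest (B) and lowest (C) library at each stage as the cholangiocyte list. The part of these shifts in the rise of Notch2, Jag1 and Dll1 was not tested, and in bulk RNA fewer cells of a type and less RNA per cell cannot be told apart. Of 12 endothelial markers 2 were called higher as deposited (Emcn and Egfl7) and 0 lower. After median-of-ratios scaling 0 were higher and 2 lower (Tie1 and Esam, which were at -1.07 and -1.20 as deposited). As deposited 9 of the 12 endothelial markers had a positive change. Their median log2 fold change was 0.51 as deposited and 0.091 after scaling, beside 0.42 and 0.011 for all genes. Of these markers 11 reached 1 TPM in all libraries, and the sum ranged from 153 to 250 TPM at E16.5 and from 143 to 277 TPM at E18.5. The defining endothelial gene Cdh5 had between 11.2 and 44.1 TPM. Of 12 mesenchymal and mural markers 3 were called higher as deposited, about the share of all genes, and 1 after scaling. As deposited 11 of the 12 had a positive change. The median log2 fold change was 1.05 as deposited and 0.61 after scaling, beside 0.42 and 0.011 for all genes. The sum ranged from 122 to 275 TPM at E16.5 and from 264 to 742 TPM at E18.5. Both the endothelial and the mesenchymal list were highest in E16.5 A and E18.5 C and lowest in E18.5 A, like Notch1, Notch3, Notch4 and Dll4. At E16.5 both lists and Notch3 were lowest in B, but Notch1, Notch4 and Dll4 were lowest in C. The part of these cell types in the levels of those genes was not tested. Megakaryocyte markers fell in 6 of 6 cases on both scales (median log2 fold change -4.43 as deposited). Of 6 pancreatic acinar markers 2 fell as deposited and 0 after scaling, with a sum of 2443 TPM in E16.5 A and at most 223 TPM elsewhere. On both scales 1 of 6 erythroid markers fell, and of 6 leukocyte markers 1 rose as deposited (Csf1r) and 1 fell after scaling (Lyz2). Without E16.5 A the same 3 receptors and ligands were called.

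Ratios to a marker gene in the same library show how closely a receptor or ligand followed it, and are free of scaling. Over the 10 cholangiocyte markers, the ratio was lower in every E18.5 library for 6 with Notch2, 4 with Jag1 and 2 with Dll1, and overlapped for the rest. It was also lower for 4 each with Notch1, Notch3 and Dll4, 3 with Jag2 and 2 with Notch4. Other members thus matched the counts of Jag1 and Dll1. Against Sox9, the gene behind the sort, Dll1 was nearly level: its TPM varied 4.85-fold over the 6 libraries, but its ratio to Sox9 only 1.49-fold, from 0.0863 to 0.128. The ratio of Notch2 to Sox9 was 1.09, 1.01 and 1.80 at E16.5 and 0.851, 0.814 and 0.806 at E18.5, lower in every E18.5 library. Jag1 to Sox9 was likewise lower, at 0.462, 0.427 and 0.534 at E16.5 and 0.335, 0.349 and 0.382 at E18.5. In these libraries the TPM of Sox9 went up by a larger factor than that of Notch2 or Jag1. Against Cdh5, an adhesion gene of endothelium, Notch4 varied 1.34-fold (ratio 0.122 to 0.163), beside 3.71-fold for its TPM; over all 12 endothelial markers the ratio of Notch4 varied between 1.34-fold and 8.87-fold, and it was higher in every E18.5 library for 5 markers and lower for 1. The ratio of Dll4 to Cdh5 was 0.306, 0.305 and 0.330 at E16.5 and 0.203, 0.198 and 0.228 at E18.5, lower in every E18.5 library. This direction depended on the marker: of the 12 endothelial markers, the ratio of Dll4 was lower in every E18.5 library for 3 (Cdh5, Emcn and Cldn5), higher for 3 (Pecam1, Tie1 and Esam) and overlapped for 6. Notch3 to Pdgfrb, a receptor gene of mural and mesenchymal cells, was 0.743, 0.970 and 0.809 at E16.5 and 0.627, 0.337 and 0.483 at E18.5, without overlap. Over the 12 mesenchymal and mural markers the ratio of Notch3 was lower in every E18.5 library for 8 and overlapped for 4 (Des, Acta2, Cspg4 and Myh11). The ratio of Dll4 to these markers gave the same counts, 8 lower and 4 overlapping, so they were not particular to Notch3. Of the 24 comparisons with Sox9, Cdh5 and Pdgfrb 6 had stages apart, each with the smallest exact permutation p of 0.1 and an adjusted p of 0.4 over the 24, so none passed a correction. Among the 28 ratios between the 8 genes themselves, 3 had stages apart, with a lowest adjusted p of 0.509 (exact permutation).

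Outside the family, the genes most like each member were sought among 15345 genes averaging 5 TPM or more. The nearest to Dll1 was Onecut1, a transcription factor gene of the liver and bile ducts, at a root mean square difference of 0.050, with 65.3, 72.7 and 35.6 TPM at E16.5 and 158, 158 and 121 TPM at E18.5. Its second was Ptgfrn at 0.068. Nearest to Jag1 were the kinase gene Map3k1 (0.050) and Amotl1 (0.053), and nearest to Notch2 were Bri3 (0.031) and Zkscan17 (0.032), though 189 genes lay within 0.1 of Notch2. Nearest to Notch4 was Fgd5 (0.087), followed by the pseudogene Gm4617 (0.10). Dll4 was nearest to Plxnd1, a semaphorin receptor gene of endothelium (0.11), and Notch1 to the pseudogene Rps12-ps26 (0.10), which was the second of Dll4 (0.16), followed by Gm43343 (0.11). Notch3 was nearest to the snoRNA genes Gm24879 (0.093) and Gm23513 (0.12), and Jag2 to the antisense genes Gm42435 (0.068) and Gm16315 (0.069).

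The other genes of the pathway were read from the same test, in 7 lists with 60 genes, of which 52 were tested. Of these 28 were called higher (53.8%) and 2 lower, beside 26.0% higher among all genes, with a median log2 fold change of 0.56. With median-of-ratios scaling 7 were higher (13.5%), beside 6.44% of all genes, and 5 lower. Of all 22452 genes 3795 were called after this scaling, 38.1% of them higher and the rest lower. The count of calls depended on single libraries: without E18.5 A it was 3 of 51 genes and without E18.5 B it was 11 of 51, beside 30 of 52 with all libraries. Calls over all genes fell as well, from 7000 of 22452 to 1472 of 22410 without E18.5 A and 2917 of 22200 without E18.5 B. The drop was therefore not particular to the pathway.

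In the nuclear complex, which turns receptor cleavage into transcription, 9 of 10 genes rose, beside 26.0% of all genes tested. Rbpj, the DNA-binding partner of every Notch receptor, had 15.8, 15.2 and 14.6 TPM at E16.5 and 26.1, 27.1 and 21.8 TPM at E18.5, with no overlap (log2 fold change 0.68, adjusted p = 0.0165; 0.24 and not called after median-of-ratios scaling, adjusted p = 0.180). Among these 10 genes the coactivator gene Maml2 had the largest change, from 6.32 ± 2.36 to 15.9 ± 0.745 TPM (SD, n = 3; log2 fold change 1.26, adjusted p = 0.0166), followed by its relative Maml1 (0.78). Only Snw1 was not called (0.47). After median-of-ratios scaling 2 of the 10 were called (Maml1 and Maml2), without E18.5 A 1, and without E18.5 B 5.

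Among 7 target genes 5 were tested and 3 rose, beside 26.0% of all genes tested. Sox9, a target in biliary cells and the gene of the reporter used for sorting, went from 138 ± 60.7 to 411 ± 56.4 TPM (SD, n = 3; log2 fold change 1.68, and 1.22 after median-of-ratios scaling, called on both scales). Hey1, a bHLH repressor gene, had 2.61, 3.18 and 2.34 TPM at E16.5 and 7.97, 8.69 and 6.41 TPM at E18.5 (1.23, adjusted p = 0.0131), and was also called after median-of-ratios scaling (0.85). Hes1, the bHLH repressor best known as a Notch target, had 78.4, 109 and 91.0 TPM at E16.5 and 166, 148 and 152 TPM at E18.5 (0.75, adjusted p = 0.0146). Its change was 0.28 after median-of-ratios scaling and was not called. Heyl, a target found in mural cells, was not called (0.15), nor was Nrarp, a feedback inhibitor (0.73, adjusted p = 0.0906). Hes5 was above 0 in 1 library only, E18.5 B, at 0.144 TPM.

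Steps before and after ligand binding were covered by the remaining lists. Of all genes tested, 26.0% were called higher as deposited and 6.44% after median-of-ratios scaling. The shares called higher as deposited were 30% for receptor cleavage and 37.5% for sugar transfer, little above that background. They were 50% for ligand endocytosis and 60% for receptor turnover, and after scaling between 0 and 12.5% for these 4 lists. Of 8 tested genes for sugar transfer to the receptors 3 rose: Eogt (log2 fold change 1.08), Poglut1 (0.88) and Gxylt1 (0.69), and none of the 8 was called after median-of-ratios scaling. The Fringe genes Lfng, Mfng and Rfng, which tune the response to Jagged and Delta ligands, were not called (0.30, -0.10 and 0.24). For ligand endocytosis in the sending cell 4 of 8 rose, with Neurl1b (1.10) and Epn2 (0.93) the largest; after scaling Epn2 was called higher and Epn1 and Dnm2 lower. For receptor cleavage 3 of 10 rose, among them the γ-secretase subunit genes Aph1b (0.99) and Ncstn (0.58), and Psen2 fell by 0.41; after scaling Aph1b was called higher and Psen2 lower. Adam10, the sheddase, was not called (0.18). For receptor turnover 6 of 10 rose, with the deltex-family gene Dtx3 (1.50) and Numbl (0.85) the largest, while Numb was not called (0.052). After median-of-ratios scaling Dtx3 was the 1 turnover gene called higher (1.05), and Numb was called lower (-0.41, adjusted p = 0.0483). Of 6 further ligand genes only 1 passed the filter on low values, Dlk1, a hepatoblast gene whose product lacks the domain that activates the receptors. It fell from 479 ± 37.0 to 107 ± 18.8 TPM (SD, n = 3; log2 fold change -2.17, adjusted p = 0.00398; -2.63 after median-of-ratios scaling), and at E16.5 its TPM was higher than that of all 8 canonical receptors and ligands.

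**Figure D5:**
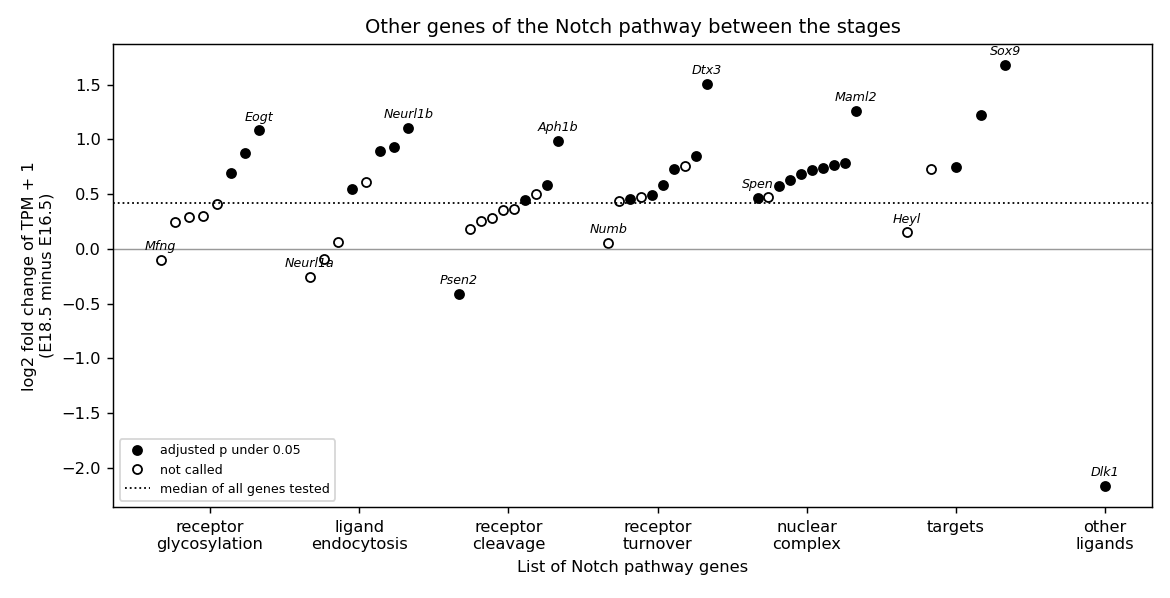
Log2 fold change of TPM + 1 (E18.5 minus E16.5) of each tested pathway gene, by list; filled points were called and open points were not, and the lowest and highest gene of each list are named. The dotted line is the median of all genes tested, 0.42; most filled points lie above it, and Dlk1 lies at -2.17.

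On GRCm38, with the GENCODE vM21 annotation, 3 of the genes lie on chromosome 2: Notch1 (ENSMUSG00000026923.15) from 26457903 to 26516663, Jag1 (ENSMUSG00000027276.7) from 137081456 to 137116644, and Dll4 (ENSMUSG00000027314.6) from 119325784 to 119335962. Another 3 lie on chromosome 17: Notch3 (ENSMUSG00000038146.7) from 32120820 to 32166852, Notch4 (ENSMUSG00000015468.14) from 34564268 to 34588503, and Dll1 (ENSMUSG00000014773.13) from 15367354 to 15376872. Notch2 (ENSMUSG00000027878.11) lies on chromosome 3 from 98013527 to 98150361 and Jag2 (ENSMUSG00000002799.6) on chromosome 12 from 112907819 to 112929776. Exons of other annotated genes share 9.76% of the exon sequence of Notch1, 5.02% of Notch2, 6.03% of Notch3 and 5.56% of Dll4, and none of Notch4, Jag1 or Jag2.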

How the data were processed

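RNA was sequenced from sorted Sox9-GFP cells in 3 libraries per stage, grouped by the sample labels. The authors trimmed reads with Trimmomatic, aligned them to GRCm38, counted them per gene on GENCODE vM15 and turned counts into TPM. The deposited values are TPM and sum to 1000000 in each library. The submitters' processing notes name FastQC 0.11.7, HISAT2 2.1.0, HTSeq 0.5.4p3 and Bowtie. Of the per-sample columns 0 were unused. Symbols, lengths and places came from GENCODE vM21, and promoter windows from RefSeq on GRCm38.p6.

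To recover reads, TPM was multiplied by exon length and divided by what 1 read is worth; 100% of values were whole within 0.01 for the 49035 genes of equal identifier version. For Notch3, whose version differs, a length of 8044 bp was inferred in the same way. Recovered reads served for depth and for limma voom as an alternative.

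The test between stages used limma 3.58.1 (R 4.3.3, eBayes, trend) on log2(TPM + 1) of the 22452 genes that averaged 1 TPM or more; p-values were adjusted by Benjamini-Hochberg, with a threshold of 0.05. Exact permutation tests were run in scipy 1.17.1 under Python 3.11.15. The steps were tested on simulated data.

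The 8 genes and the lists were chosen with earlier results of these data known, and 1 gene of the lists is not reported here. Besides the 8, genes were named if among the 2 largest called changes of a list, if needed for their role, or if among the 2 nearest in profile among genes averaging 5 TPM or more. The ratios to Sox9, Cdh5 and Pdgfrb were chosen after their values were seen, and ratios to all markers of the same lists were added later. Alternatives were a pseudocount of 0.1, no filter, median-of-ratios scaling, quantile normalization, voom, the replicate letters as a block, and each library left out.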

Additional observations from a re-analysis of the deposited data

How the results depend on the processing

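With all libraries 7000 genes were called. The number was 4282 with no filter on low values, 3795 with median-of-ratios scaling and 3796 with quantile normalization, and between 1472 (without E18.5 A) and 5686 with 1 library left out. The share of calls that were higher at E18.5 was 83.3% as deposited, 38.1% after median-of-ratios scaling and 50.5% after quantile normalization. Of the 8 receptors and ligands 3 were called, but 1 (Notch2) after median-of-ratios scaling, and between 0 (without E18.5 A) and 3 with 1 library left out; without E18.5 B it was 1, Notch2. Over the 12 alternatives Notch2 was called in 11, Jag1 and Dll1 in 9 each, and the other 5 genes in 0. Of the other pathway genes 30 were called, 19 with no filter, 12 after median-of-ratios scaling and 17 after quantile normalization, and between 3 (without E18.5 A) and 25 with 1 library left out; for these genes only the median-of-ratios setting had been planned, and the others were added after seeing the data.

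The direction of 3 genes that were not called depended on the setting. Scaled by median of ratios, their log2 fold changes were -0.040 for Notch1, -0.19 for Notch3 and -0.10 for Dll4, and after quantile normalization -0.016, -0.18 and -0.14. With 1 library left out it ranged from -0.055 (without E18.5 C) to 0.41 for Notch3 and from -0.032 (without E18.5 C) to 0.67 for Dll4, and the change of the Notch4 share from -0.36 to 0.37 percentage points. The cause of these changes was not tested.

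Nothing states whether the letters A, B and C pair the pools. Same-letter libraries deviated from their stage means with correlations of -0.04 (A), 0.08 (B) and 0.14 (C). Those of different letters lay between -0.15 and 0.08, and 3 libraries a stage are too few to decide on pairing. With the letters as a replicate block 7314 genes, and the same 3 receptors and ligands, were called, with log2 fold changes of 1.07 for Notch2, 1.26 for Jag1 and 1.34 for Dll1. With 3 libraries a stage, intervals of the log2 fold change were as wide as -0.66 to 1.23 (Dll4), so differences inside them were not detectable.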
